A study of Mus musculus with 12 samples.

Results

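Chemokines that lymphocytes can make, some of them made by other cells too, and the receptors that read them were examined in mouse SCC35 tumours. They were the ligands Ccl1, Xcl1, Ccl5, Ccl3 and Ccl4 and the receptors Ccr8 and Xcr1. These 7 genes, of 32285 gene rows, were matched by symbol, and their unique molecular identifiers (UMIs, which count captured RNA molecules) were summed in T, natural killer (NK), macrophage and dendritic cells of each tumour. The 7 were chosen by their measured levels in these cell classes, so the order of the classes is given as a description, without a test. The study set SCC35 lines labelled Mif KO (lines 19 and 24) against lines labelled as controls of that knockout (lines 15 and 18). The Mif gene codes for a cytokine, the macrophage migration inhibitory factor. Tumours were dissociated, each was marked with an antibody-linked hashtag, live cells were sorted by propidium iodide, and RNA was captured at its 5′ end in droplets. The hashtag sheet gives the line and a day, 0, 6, 10 or 16. After day 0 there were 18 control tumours, 17 Mif KO tumours and 3 tumours of a line called WT that the labels place in neither group, and at day 0 there were 3 control and 4 Mif KO samples. The labels used here do not give the host's strain, age or sex, how the Mif gene was cut, what the control lines carry, whether a line is 1 clone, or what a day 0 sample is. The WT tumours stand in the hashtag sheet alone: the labels of the mixed library that held them name lines 18 and 24 and no WT line, so what they are cannot be settled here. Each hashtag was taken as 1 tumour, and p-values measure the spread between such samples, which may be technical.

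Chemokines are small secreted proteins that guide cells along concentration gradients by binding receptors of the G-protein-coupled class. CCL1 is a ligand of CCR8, a receptor found on activated T cells and on many regulatory T cells within tumours. XCL1, made by NK cells and activated CD8 T cells, binds XCR1, a receptor that marks type 1 conventional dendritic cells, which present tumour antigen to CD8 T cells. CCL3, CCL4 and CCL5 are inflammatory chemokines that draw in T cells and myeloid cells, and macrophages and neutrophils as well as lymphocytes can make CCL3 and CCL4.

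The ligand genes Ccl1, Ccl5, Ccl3 and Ccl4 all lie on mouse chromosome 11 (GRCm38, GENCODE M21 annotation), and each is protein-coding. Ccl5 spans chr11:83525778-83530518 on the minus strand, Ccl3 spans chr11:83647844-83649355 on the minus strand, and Ccl4 spans chr11:83662584-83664683 on the plus strand. The lower coordinate of Ccl4 lies 14.7 kb from the lower coordinate of Ccl3. The annotated Ccl1 gene, chr11:82176657-82305690 on the minus strand, is long because of 1 of its 3 transcripts, with up to 11 exons. Xcl1 lies at chr1:164931644-164935527 on the minus strand and overlaps the antisense gene Gm20743, which had 9 UMIs over all libraries. Ccr8 lies at chr9:120092114-120094906 on the plus strand and Xcr1 at chr9:123852315-123862029 on the minus strand. The promoters of the 3 ligands with distinct patterns below are shown for the 150 bases before the RefSeq start (GRCm38.p6), 5′ to 3′ on the gene's strand, with matches in capitals.
Ccl1, chr11:82179813-82179962 (minus strand): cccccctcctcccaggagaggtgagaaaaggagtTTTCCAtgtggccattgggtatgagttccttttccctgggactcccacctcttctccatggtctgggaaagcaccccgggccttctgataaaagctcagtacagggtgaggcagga
Ccl3, chr11:83649379-83649528 (minus strand): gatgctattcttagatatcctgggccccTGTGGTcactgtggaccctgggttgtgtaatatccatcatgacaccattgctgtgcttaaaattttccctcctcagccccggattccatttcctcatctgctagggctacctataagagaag
Xcl1, chr1:164935523-164935672 (minus strand): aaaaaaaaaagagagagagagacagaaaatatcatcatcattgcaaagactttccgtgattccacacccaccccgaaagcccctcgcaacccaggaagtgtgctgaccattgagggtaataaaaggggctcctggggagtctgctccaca
The capitals in Ccl1 mark the NFAT motif TGGAAA read on the other strand, and those in Ccl3 mark the Runt motif TGTGGT. Of 32851 mouse promoter windows of the same length, 10.8% held the first and 8.40% the second on either strand. The AP-1 motif TGANTCA (4.24% of windows), the kappaB motif (0.925%) and the TATA box TATAAA (7.57%) were searched in the same way; the kappaB pattern can overlap an NFAT match. Xcl1, Xcr1 and Ccr8 held none of the 5 motifs, and 5 of the 7 genes, all but Ccl4 and Ccl5, were matched in the RefSeq promoter table. A match describes the letters of the window and is not a measured binding site.

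The data were 6 libraries, 4 of a single line and 2 that mixed lines, with 151385933 to 239699029 UMIs each. Of 176381 barcodes, 163866 passed the cell filters and 100459 carried 1 hashtag; hashtag doublets made up 17.9 to 30.9% of cells by library, and pairs of libraries shared 3.83 to 5.05% of barcodes. Cells were gated on raw UMIs of marker genes, none of them one of the 7, into 4377 T cells, 310 NK cells, 8807 macrophages, 732 dendritic cells and 58344 cells without immune markers, called non-immune here. The T cells comprised 1346 CD8, 813 conventional CD4, 195 regulatory (Foxp3 UMI) and 2023 other T cells. The other T cells had no UMI of the subset genes or a mixture of them. Whether they lack these genes or the UMIs were missed was not tested. The T-cell gate set no limit on UMIs of NK-cell genes. The dendritic cells comprised 85 type 1 (Clec9a UMI), 536 mature (Ccr7 UMI with a second maturation gene) and 111 others. Of markers that the gates did not use, 3 of 3 were at least 2-fold enriched in T cells, 4 of 4 in regulatory T cells, 5 of 6 in NK cells, 2 of 2 in macrophages and 5 of 6 in type 1 dendritic cells. At day 0 only 24 of 6376 cells fell in any immune gate, 23 of them from line 24. Mif in the non-immune cells had means of 2390 ± 421 CPM (counts per 1000000 UMIs; SD, n = 11) and 2127 ± 280 CPM (n = 10) in control lines 15 and 18, and 131 ± 98.6 CPM (n = 11) and 482 ± 193 CPM (n = 10) in Mif KO lines 19 and 24, and the groups did not overlap.

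**Figure D1:**
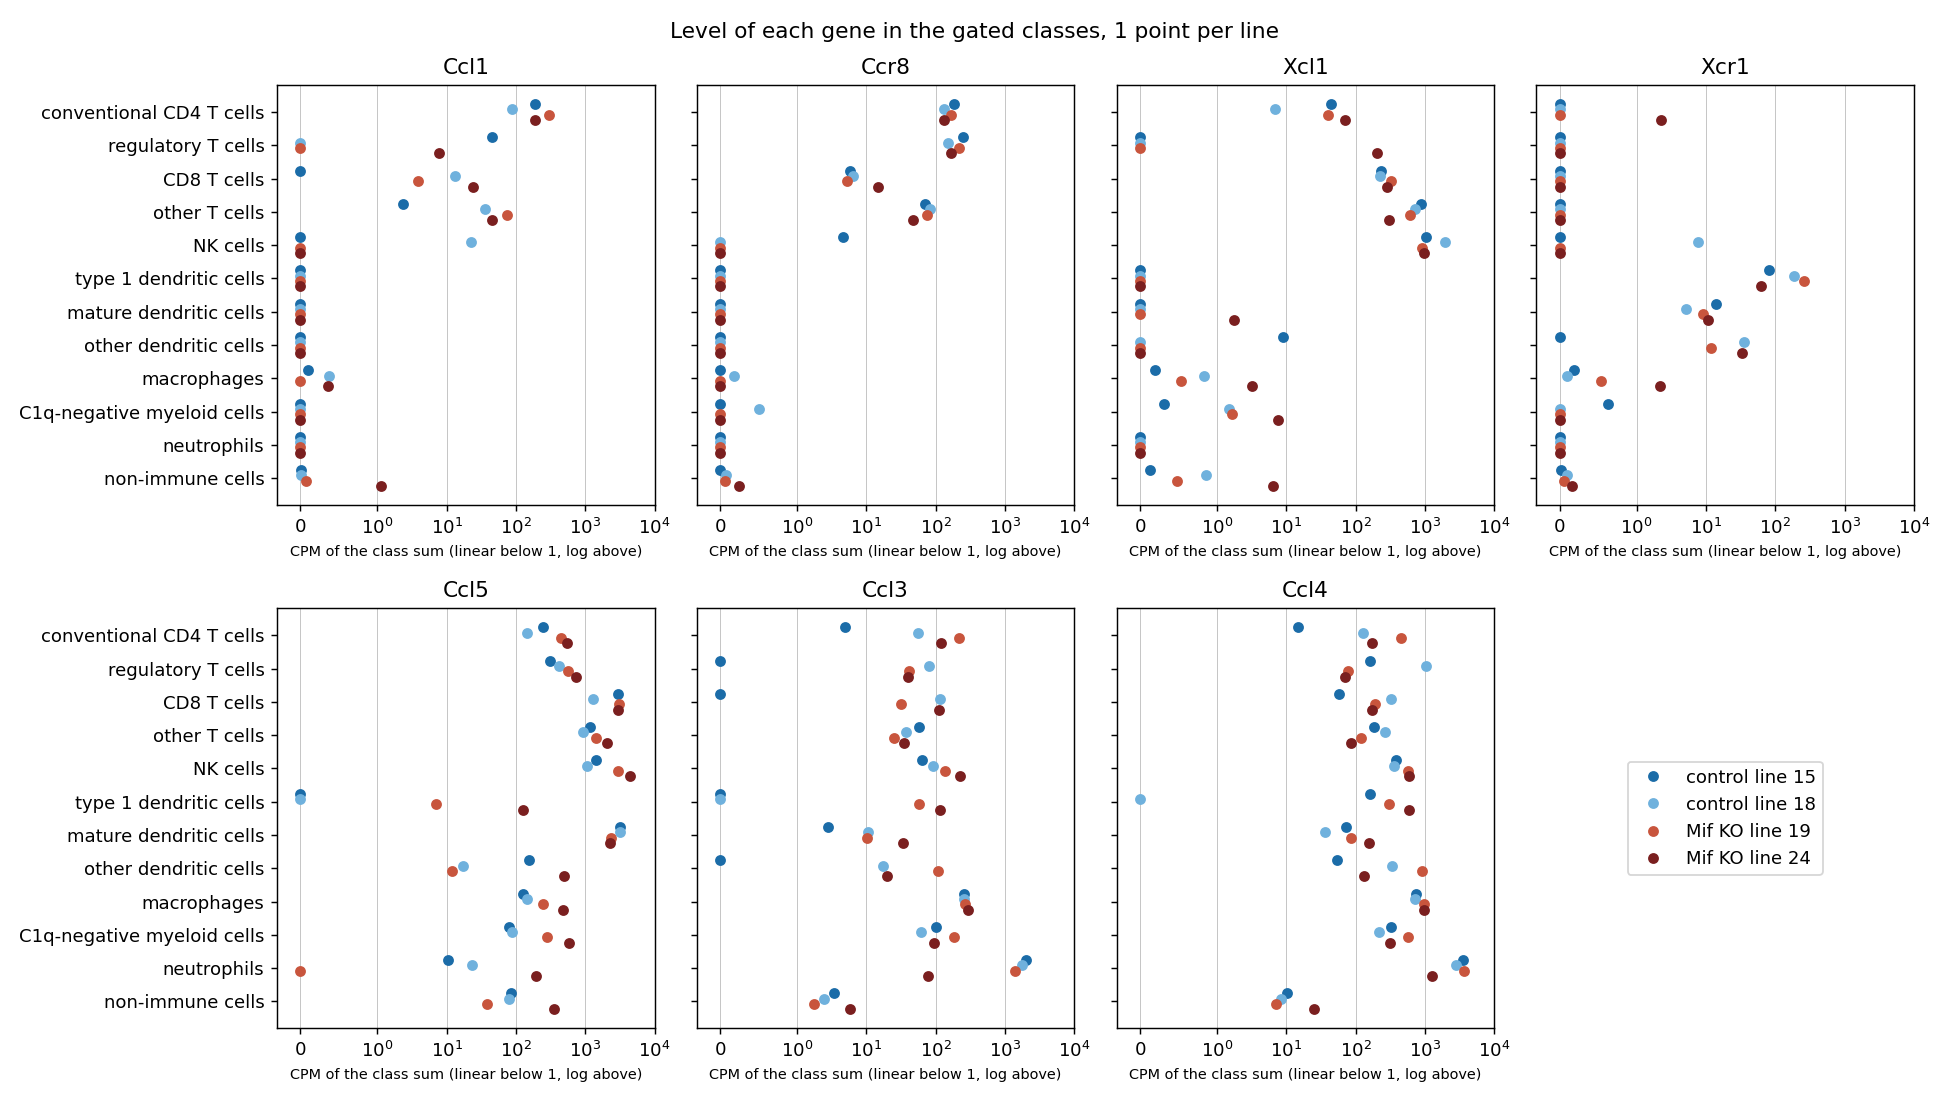
Level of each of the 7 genes in each gated class, as CPM of the UMIs summed over a class and line (linear below 1, log above), with 1 point for each of the 4 lines. Ccl1 was highest in conventional CD4 T cells, Ccr8 in regulatory and conventional CD4 T cells, Xcl1 in NK cells and Xcr1 in type 1 dendritic cells.

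Ccl1 RNA came from few T cells and was highest in conventional CD4 cells. In that class lines 15, 18, 19 and 24 had 189.9, 89.1, 303 and 190.1 CPM, and the WT tumours had 941 CPM. All 4 lines were higher there than in any other class. Single tumours carried much of these sums: 34 of the 38 UMIs of line 15 came from tumour A at day 16, without which the line had 28.6 CPM from 4 UMIs, and without the tumour with the most UMIs line 18 had 49.96 CPM from 7 UMIs and line 24 had 126 CPM. Other T cells had 2.38 to 74.0 CPM by line, CD8 T cells 0 to 23.8 and regulatory T cells 0 to 44.7. The 490 Ccl1 UMIs of conventional CD4 T cells were 56.4% of the 869 found in all gated cells of the 4 lines. Macrophages had 7 of these UMIs and dendritic cells none.

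The gene was also unevenly spread within T cells. A Ccl1 UMI was found in 159 of 4095 T cells, the 10 cells with the most UMIs held 37.3% of all 804, and 1 cell held 63. The counts came from 27 of 35 tumours. With each cell thinned to 1000 UMIs, 8.38% of conventional CD4 T cells (exact binomial 95% interval 6.44 to 10.7) had a Ccl1 UMI, against 0.625% of regulatory T cells (0.0158 to 3.43) and 0.0131% of non-immune cells (0.00480 to 0.0284). Before thinning these shares were 10.2%, 1.08% and 0.0373%, at median depths of 1620, 1696 and 6658 UMIs. Intervals and limits of this kind cover counting error only.

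A minority of the 79 conventional CD4 T cells with a Ccl1 UMI also had a UMI of Ccl4 or Ccl3. Ccl4 was found in 17 of them (21.5%, 13.1 to 32.2), against 6.44% (4.73 to 8.52) of the 699 others. Ccl3 was found in 11 (13.9%, 7.16 to 23.5), against 4.29% (2.91 to 6.07). The summed Ccl4 level of 1485 against 126 CPM rested largely on 1 cell, which held 224 of the 336 UMIs, and for Ccl3, at 455 against 109 CPM, 1 cell held 44 of 103. Csf2, a myeloid growth factor of activated T cells, was at 354 against 118 CPM, with a UMI in 23 cells. Il2ra, the high-affinity interleukin 2 receptor chain, was at 190.1 against 90.8 CPM, with no more than 4 UMIs in a cell. Of the other genes of its regulatory T-cell list, Batf was at 203 against 155 CPM, Tnfrsf18 at 473 against 450.2, Ctla4 at 155 against 323 and Ikzf2 at 44.2 against 85.0 CPM, so the list went both ways. Xcl1 was at 141.5 against 40.4 CPM, with a UMI in 12 of the 79 cells and 32 of the others. Ccl5 ran the other way, 177 against 485 CPM, as did Ccl2, a ligand that draws monocytes, 57.5 against 141 CPM, and the granule protease Gzmb, 92.8 against 252 CPM. Ccr8 itself was detected in 32.9% of the Ccl1-positive cells (22.7 to 44.4) and in 24.6% of the others (21.5 to 28.0), so the intervals overlapped. These sums pool cells of several tumours, and the median depths were 1775 and 1593 UMIs.

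Ccl1 in the T cells of a tumour ranged from 0 to 175 CPM in the 13 control tumours with at least 20 T cells, with a median of 15.3, and from 0 to 382 CPM in 17 Mif KO tumours, with a median of 52.2. The groups overlapped, and 4 control tumours and 1 Mif KO tumour had no Ccl1 UMI. A control tumour just under the cut, tumour B of line 18 at day 10 with 17 T cells, had 470 CPM from 13 UMIs. That is above every tumour in these ranges, so the control values at day 10 depend on the cut. In the Mif KO tumours the mean was 36.7 ± 51.1 CPM at day 6 (SD, n = 5), 155 ± 120 at day 10 (n = 6) and 50.1 ± 12.4 at day 16 (n = 6). In the control tumours it was 3.84 ± 7.67 (n = 4), 12.7 ± 9.38 (n = 4) and 55.9 ± 68.2 (n = 5). The rise of Ccl1 in Mif KO T cells was known when the genes were chosen and is a description here. Its low counts kept the gene out of the edgeR fit with the low-count filter.

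Ccr8, the receptor for CCL1, was a T-cell gene in these tumours and was highest in the CD4 subsets. Regulatory T cells had 251, 152, 218 and 165 CPM in lines 15, 18, 19 and 24, and conventional CD4 T cells had 185, 130.2, 167 and 132 CPM. In each line the counting intervals of these classes overlapped. Without tumour A at day 16, line 15 had 131 and 115 CPM in these 2 classes. In line 18, tumour B at day 16 held 9 of the 15 Ccr8 UMIs of regulatory T cells. Other T cells had 69.2, 83.9, 75.1 and 47.6 CPM and CD8 T cells no more than 14.5 CPM. After thinning, 20.6% of regulatory T cells (14.6 to 27.7) and 15.3% of conventional CD4 T cells (12.8 to 18.2) had a Ccr8 UMI, against 1.06% of CD8 T cells and 0.0152% of non-immune cells; before it the shares were 28.1%, 25.4%, 2.75% and 0.0517%. No dendritic cell of 706 in the 4 lines had a Ccr8 UMI, and at the thinned depth 0 of 694 cells allows a share of cells with a UMI of up to 0.432%, which does not limit the share that express the gene at a lower level.

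Ccr8 rose in T cells between days 6 and 16. The 9 day 6 tumours had 0, 34.3 and 54.9 CPM as lowest, median and highest, the 10 day 10 tumours 32.9, 64.2 and 201 CPM, and the 11 day 16 tumours 38.9, 99.8 and 207 CPM. Day 6 and day 16 overlapped only between 38.9 and 54.9 CPM. With line as a term the log2 change (the log2 of the fold change) from day 6 to day 16 was 1.53 (SE 0.33, edgeR adjusted p = 0.0156). It was 1 of 5 tested members called in that comparison, in which 0.692% of 3323 genes were called; Ccl5 (0.00), Xcl1 (-0.20), Ccl3 (-0.58) and Ccl4 (0.29) were not. The call was lost without control line 15 (log2 change 1.39, edgeR adjusted p = 0.0932), without Mif KO line 19 (1.77, 0.0706), in the single-line libraries alone (1.48, 0.150), with hashtags called by ratio (1.48, 0.0550) and with at least 50 T cells per tumour (1.24, 0.172).

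The make-up of the T cells also differed by day, and not in the same way in both groups. Regulatory T cells were a median of 3.85% of T cells at day 6, 4.63% at day 10 and 10.0% at day 16. In control tumours the medians were 5.49, 10.96 and 14.5%, with a day 16 range of 10.99 to 21.4%, and in Mif KO tumours they were 3.64, 3.94 and 1.67%, with a day 16 range of 0.621 to 10.0%. T-cell Ccr8 was higher at day 16 than at day 6 in both groups, with means of 31.1 ± 21.8 (SD, n = 4) and 125 ± 46.3 CPM (n = 5) in control and of 30.8 ± 14.9 (n = 5) and 78.0 ± 51.6 CPM (n = 6) in Mif KO tumours. Conventional CD4 T cells were a median of 16.9%, 24.3% and 14.3% of T cells on the 3 days. Within conventional CD4 T cells, pooled over tumours, Ccr8 was at 50.3, 150 and 282 CPM in control and at 125, 172 and 126 CPM in Mif KO tumours. Within other T cells it was at 34.2, 53.0 and 113 CPM in control and at 16.3, 83.8 and 58.2 CPM in Mif KO tumours. Within regulatory T cells it was at 62.4, 126 and 252 CPM in control and 162, 205 and 217 CPM in Mif KO tumours, the first of these from 2 UMIs. The part of subset make-up in the rise was not tested, and in whole T-cell sums more cells of a type and more RNA per cell cannot be told apart. Of 5 tested regulatory T-cell genes, a list made of Foxp3, Il2ra, Ikzf2, Ctla4, Tnfrsf18 and Batf, none was called between these days, and their median log2 change was 0.29 against 0.00 over all genes tested.

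**Figure D2:**
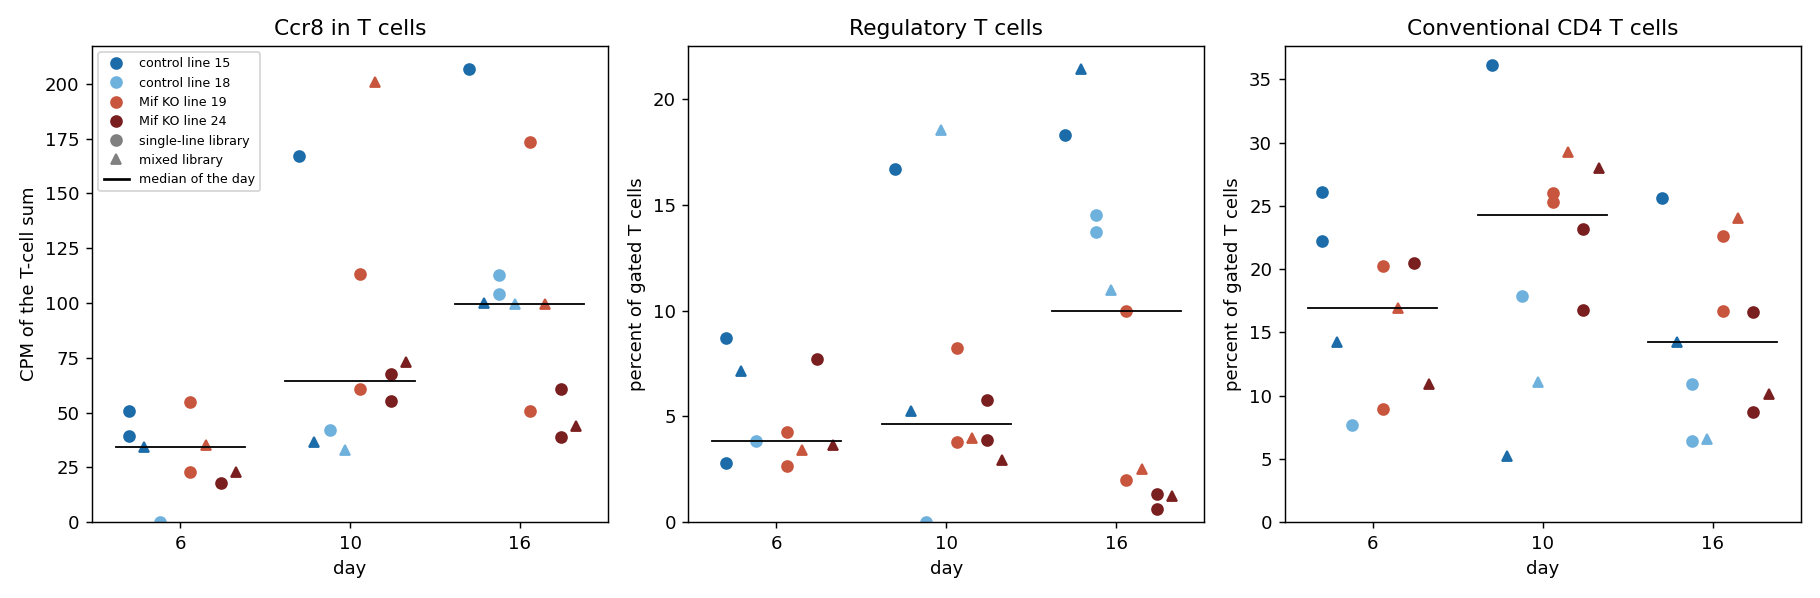
Ccr8 in T cells (CPM of the T-cell sum), and regulatory and conventional CD4 T cells as percent of gated T cells, by day; each point is a tumour with at least 20 T cells, triangles are mixed libraries and bars are medians of the day. Median Ccr8 went from 34.3 to 99.8 CPM between days 6 and 16, while the median share of regulatory T cells went from 5.49 to 14.5% in control and from 3.64 to 1.67% in Mif KO tumours.

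Between the groups, T-cell Ccr8 was at a median of 50.6 CPM in control tumours (range 0 to 207) and 55.5 CPM in Mif KO tumours (18.0 to 201). These ranges overlapped almost fully, and the log2 change was -0.33 (SE 0.30, edgeR adjusted p = 0.575); with library as a term its sign turned, to 0.73. Regulatory T cells were 10.9 ± 6.85% of T cells in control tumours (SD, n = 13) and 4.0 ± 2.58% in Mif KO tumours (n = 17). The group-by-day term for Ccr8 was -1.05 (SE 0.82, edgeR adjusted p = 0.816).

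Xcl1, which encodes the ligand of XCR1, was highest per UMI in NK cells, while most of its UMIs were in the more numerous T cells. NK cells had 1029, 1976, 922 and 968 CPM in lines 15, 18, 19 and 24 and 942 CPM in the WT tumours. Other T cells had 878, 717, 602 and 304 CPM, and CD8 T cells 233, 225, 330.3 and 285 CPM. Conventional CD4 T cells had 6.85 to 70.7 CPM. Without the tumour with the most Xcl1 UMIs in the class, CD8 T cells had 129, 99.4 and 196 CPM in lines 15, 18 and 19, and other T cells of line 18 had 471 CPM. With hashtags called by ratio the pooled level went from 1113 to 631 CPM in NK cells and from 328 to 199 CPM in T cells. Of the 5019 Xcl1 UMIs in gated cells of the 4 lines, T cells held 3575, among them other T cells 49.2%, and NK cells held 19.9%. After thinning, 48.7% of NK cells (42.6 to 54.8), 18.5% of other T cells and 13.1% of CD8 T cells had an Xcl1 UMI, against 0.163% of non-immune cells. Before thinning these shares were 62.3%, 24.5%, 21% and 0.447%.

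Xcl1 did not pass the test between groups in T, CD8 T or NK cells, nor between days in T or NK cells. In NK cells the 4 control tumours with at least 10 cells had 343, 940, 1608 and 1875 CPM, and the 9 Mif KO tumours had 374, 1282 and 2019 CPM as lowest, median and highest. The control values in the fit lay within or near the Mif KO range, and the log2 change was 0.04 (SE 0.45, 2 SE on either side giving -0.85 to 0.94, edgeR adjusted p = 0.9897). Control tumours under the cut, of 1 to 7 NK cells, had 0 to 3132 CPM, and Mif KO tumours under it 233 to 1359 CPM. Tumours A and B of line 18 at day 16, with 3132 and 2966 CPM, were above every tumour in the fit. The comparison thus depends on the cut. From day 6 to day 16 the NK log2 change was 0.99 (SE 0.51, edgeR adjusted p = 0.700). In these NK fits, on sums of at least 10 cells, edgeR called 0 of 617 genes (0%) for Mif KO, with 75 genes at an unadjusted p under 0.05, and DESeq2 called 1; for the day it also called 0 of 617 (0%), with 37 genes at an unadjusted p under 0.05, and DESeq2 called 1. None of the 3 tested members was called by either tool. Whole T cells had 12.7, 202 and 1300 CPM in control tumours and 69.0, 265 and 760.2 CPM in Mif KO tumours, with a log2 change of -0.49 (SE 0.43, edgeR adjusted p = 0.544). In CD8 T cells the log2 change was 0.84 (SE 0.58, edgeR adjusted p = 0.551), and it passed without the low-count filter (1.03, 0.0209).

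Xcl1 and Ccl5 were not simply detected in the same cells. An Xcl1 UMI was present in 54.7% of NK cells with Ccl5 (47.4 to 62.0, n = 190) and in 75.7% of NK cells without it (66.5 to 83.5, n = 107), although the latter were deeper, with a median of 3139 against 1625 UMIs. CD8 T cells went the same way, with 19.3% (16.8 to 22.0) and 26.7% (21.6 to 32.3) at median depths of 1900 and 2308 UMIs. Other T cells went the opposite way, with 31.8% (29.0 to 34.7) and 15.8% (13.5 to 18.4). The part of depth in these shares was not tested.

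Xcr1 was highest in dendritic cells that carried Clec9a, a receptor for dying cells that marks the same type. Type 1 dendritic cells had 80.3, 183, 256 and 62.5 CPM in lines 15, 18, 19 and 24, from 4, 5, 36 and 6 UMIs. A single tumour held 2 of the 4 UMIs of line 15, 3 of the 5 of line 18 and 4 of the 6 of line 24, so these levels are loose. Pooled over the 4 lines, 51 UMIs in 81 cells gave 163 CPM (exact Poisson 95% interval 121 to 214), and were 40.2% of the 127 Xcr1 UMIs in gated cells. Other dendritic cells had 35.1, 11.9 and 33.2 CPM in lines 18, 19 and 24, from 2, 1 and 5 UMIs. Mature dendritic cells ranged from 5.22 to 14.04 CPM by line and macrophages from 0.0929 to 2.16. After thinning, 11.4% of type 1 dendritic cells (5.34 to 20.5) had an Xcr1 UMI, against 0.593% of mature dendritic cells and 0.0152% of non-immune cells. Before it the shares were 25.9%, 1.94% and 0.0538%. The cells were too few for a fit of Xcr1 within the type, so the number of cells was compared in its place.

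Type 1 dendritic cells were a larger share of gated immune cells in Mif KO tumours. The 18 control tumours with at least 100 immune cells had 0, 0.161 and 1.98% as lowest, median and highest, from 18 such cells. The 16 Mif KO tumours had 0, 0.919 and 3.12%, from 63 cells. The ranges overlapped, and the means were 0.346 ± 0.519% and 1.07 ± 0.903% (SD), a difference of 0.723 percentage points (two-sided permutation test, 100000 resamples, p = 0.00516). By day the difference was 1.57 points at day 6 (exact permutation p = 0.0381), 0.258 at day 10 (p = 0.381) and 0.733 at day 16 (p = 0.00216, the smallest that 6 against 6 tumours can give), each day being tested alone after the pooled value was seen. At day 16 the 6 Mif KO tumours lay between 0.588 and 1.27% and the 6 control tumours between 0 and 0.325%.

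The difference in type 1 dendritic cells kept its sign without each line in turn. Without Mif KO line 19 it was 0.590 points (exact permutation p = 0.0830), and in the mixed libraries alone, 6 tumours a group, 0.673 points (p = 0.290). In the single-line libraries it was 0.726 points (permutation p = 0.00148). The control lines 15 and 18 held 2214 and 2955 gated macrophages and the Mif KO lines 19 and 24 held 1104 and 1728, and a share of immune cells moves with the other classes. Mature dendritic cells went the same way, numbering 86 and 63 in the control lines and 205 and 163 in the Mif KO lines, and T cells 325 and 402 against 1277 and 2098. Whether type 1 cells moved more than mature ones was not tested.

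**Figure D3:**
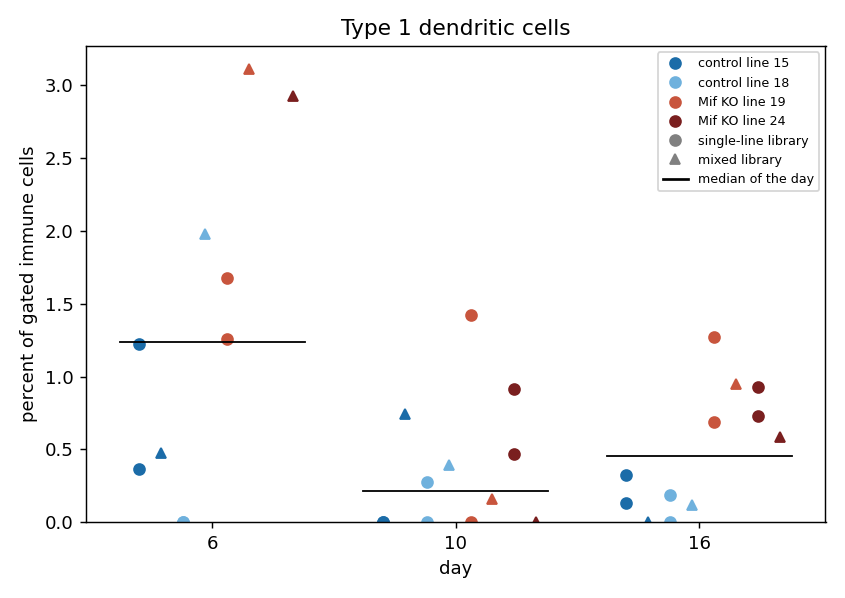
Type 1 dendritic cells as percent of gated immune cells by day; each point is a tumour with at least 100 gated immune cells, triangles are mixed libraries and bars are medians of the day. At day 16 every Mif KO tumour (0.588 to 1.27%) lay above every control tumour (0 to 0.325%).

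Ccl5, which encodes a ligand of CCR1, was highest per UMI in lymphocytes and in mature dendritic cells. Non-immune cells, the most numerous class, held 50.1% of the 67982 Ccl5 UMIs in gated cells of the 4 lines, at lower levels. CD8 T cells held 14.2%, other T cells 11.8%, macrophages 9.50%, mature dendritic cells 7.49% and NK cells 3.52%. CD8 T cells had 2999.6, 1312, 3085 and 2969 CPM in lines 15, 18, 19 and 24, NK cells 1415, 1068, 2960 and 4391 CPM, and mature dendritic cells 3185, 3222, 2341 and 2254 CPM. NK cells of line 15 had 491 CPM without tumour B at day 6, and mature dendritic cells of line 18 had 1484 CPM without tumour C at day 16. Pooled over the lines, NK cells had 2658 and mature dendritic cells 2552 CPM, and with 1 more UMI per gate 1727 and 2826 CPM, so their order turned. Type 1 dendritic cells stood apart from the mature ones, with 0, 0, 7.11 and 125 CPM. Tumour C of line 24 at day 16 held 10 of their 13 Ccl5 UMIs. After thinning, a Ccl5 UMI was in 65.3% of CD8 T cells (62.5 to 68.1), 53.5% of NK cells, 46.5% of other T cells and 45.1% of mature dendritic cells. Conventional CD4 T cells had 17.8%, macrophages 10.6%, non-immune cells 4.86% and type 1 dendritic cells 2.53%. Before thinning the shares were 76.6%, 64.0%, 54.6% and 57.2%, then 23.4%, 17.7%, 11.2% and 7.41%.

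Ccl5 in non-immune cells differed by line. The tumours of line 24 had 235, 286 and 679 CPM as lowest, median and highest (n = 8), while lines 15, 18 and 19 had medians of 84.0, 97.7 and 30.0 CPM and no tumour above 143. Line 24 did not overlap the other 3. The WT tumours had 137, 203 and 274 CPM, which reached into the range of line 24. At day 0, where 24 of 6376 cells fell in an immune gate, its non-immune cells had 313 CPM over 2793 cells and 27.5% had a UMI, against 29.4 to 44.1 CPM in the other 3 lines. In those line 24 cells at day 0 the lymphocyte genes Nkg7 and Gzmb were at 1.36 and 2.29 CPM. Line 19, the other Mif KO line, was below both control lines at days 10 and 16 (29.6 and 23.8 CPM) and between them at day 0 (35.4) and day 6 (61.2 CPM, against 96.6 and 38.7).

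Ccl5 was higher in T cells of Mif KO tumours. The 13 control tumours had 307, 1100 and 1690 CPM as lowest, median and highest, and the 17 Mif KO tumours 513, 1726 and 3656 CPM. The ranges overlapped, the means were 1004 ± 420 and 1717 ± 773 CPM (SD), and the log2 change was 0.81 (SE 0.23, edgeR adjusted p = 0.0294). It was the 1 call among 5 tested members, in a comparison that called 7.16% of 3323 genes; Ccl3 (0.69), Xcl1 (-0.49), Ccr8 (-0.33) and Ccl4 (-0.02) did not pass. The call was lost without control line 18 (0.54, edgeR adjusted p = 0.300), without Mif KO line 24 (0.58, 0.220), with library as a term (0.69, 0.609), in the mixed libraries alone (0.61, 0.567), in the single-line libraries alone (0.74, 0.116), with 1 sum per line (0.86, 0.339) and with at least 50 cells (1.01, 0.0571). Line is nested in group, with 2 lines each, so a difference between lines and an effect of the knockout cannot be told apart.

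By day, T-cell Ccl5 was 1370 ± 230 CPM in control (SD, n = 4) and 1443 ± 579 in Mif KO tumours (n = 5) at day 6. At day 10 it was 858 ± 432 (n = 4) and 1547 ± 459 (n = 6), and at day 16 828.7 ± 395 (n = 5) and 2116 ± 1063 (n = 6). At day 16 the 3 tumours of line 24 had the highest T-cell Ccl5, 3656, 2715 and 2338 CPM, and the most CD8 cells, 55.9, 49.6 and 54.5% of T cells, against 14.3 to 32.3% in the 5 control tumours and 11.4 to 38.3% in line 19. The part of CD8 make-up in the difference was not tested. The group-by-day term was 1.29 (SE 0.52, edgeR adjusted p = 0.463) and did not pass. For Ccl4 it was -3.23 (SE 1.04, edgeR adjusted p = 0.228), and 0 of 5 members were called where 0.512% of 3323 genes were. Both Ccl4 and Ccl5 had an unadjusted p under 0.05, and DESeq2 called 0 of the 5 members.

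**Figure D4:**
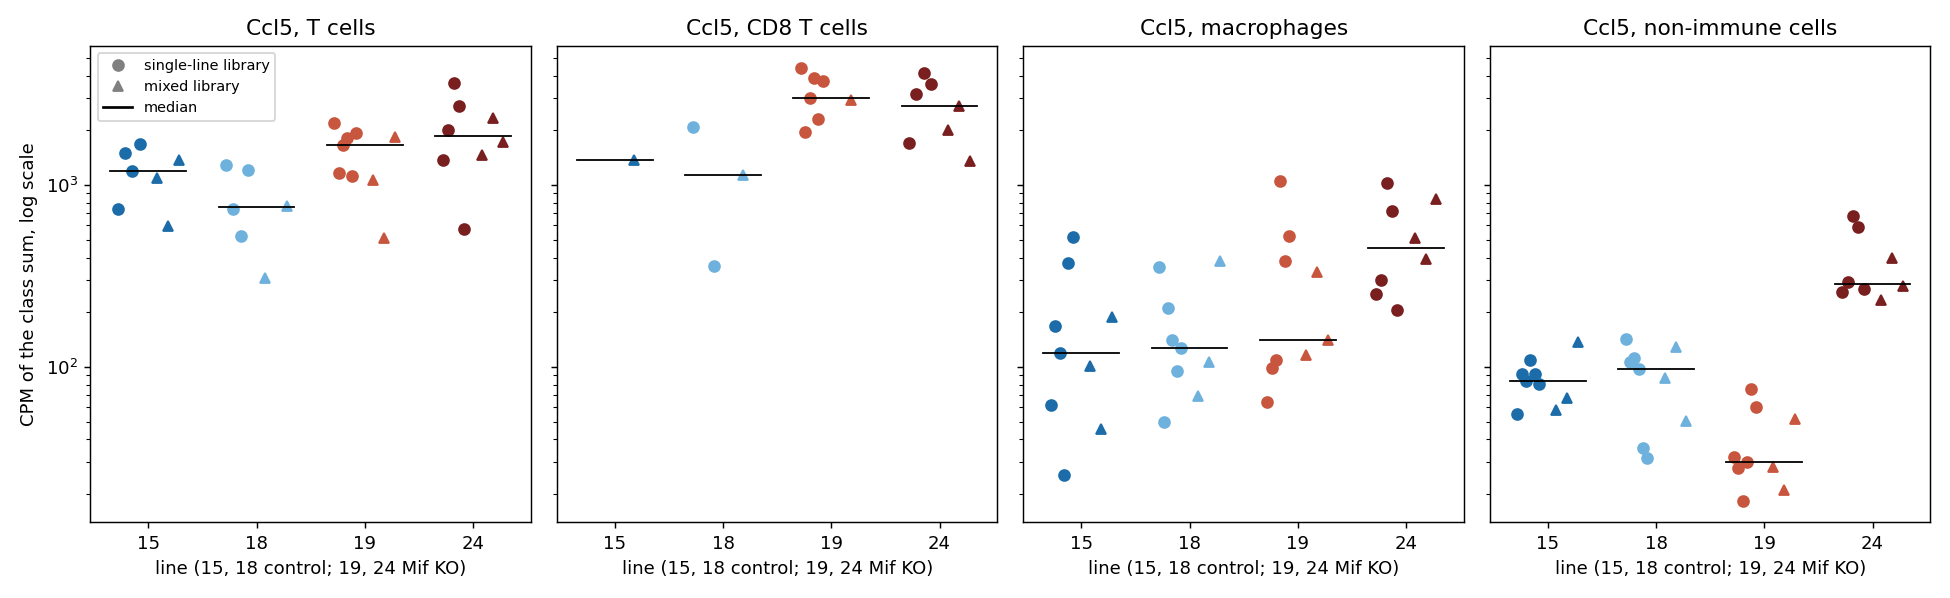
Ccl5 as CPM of the class sum on a log axis, by line, in T cells, CD8 T cells, macrophages and non-immune cells; each point is a tumour (classes with at least 20 cells), triangles are mixed libraries and bars are medians of the line. In CD8 T cells control line 15 is a single tumour, and in non-immune cells line 24 lay above the other 3 lines shown and line 19 had the lowest median.

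Within CD8 T cells Ccl5 was also called, from 4 control tumours of days 10 and 16 with at least 20 CD8 T cells, 1 of them of line 15. They had 358, 1138, 1372 and 2092 CPM, and the 14 Mif KO tumours 1359, 2969 and 4433 CPM. The groups overlapped between 1359 and 2092 CPM, and the log2 change was 1.30 (SE 0.31, edgeR adjusted p = 0.0246). It was the only call among 4 tested members, where 2.25% of 1915 genes were called; Ccl4 had -0.98 (edgeR adjusted p = 0.267). Sums that took in tumours with fewer CD8 T cells did not all show this difference. The sum over all line 15 tumours, 2999.6 CPM as given above, was level with both Mif KO lines. The sums at day 6, where no control tumour had 20 such cells, were 3380 CPM in control (40 cells) and 2490 CPM in Mif KO tumours (139 cells). At days 10 and 16 the sums were 1525 and 1657 CPM in control and 2763 and 3268 CPM in Mif KO tumours. CD8 cells were 26.9 ± 15.7% of T cells in control and 28.2 ± 14.3% in Mif KO tumours (SD). The call was lost without control line 15 (1.33, edgeR adjusted p = 0.0526), without Mif KO line 19 (1.25, 0.0593), with library as a term (1.24, 0.733), in the mixed (1.28, 0.630) and single-line libraries (1.38, 0.165), with stricter cell filters (1.08, 0.0839) and with at least 10 cells (0.45, 0.558), and without control line 18 too few control tumours were left for a fit.

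NK cells and dendritic cells gave no Ccl5 call with the low-count filter. Without it NK Ccl5 was called (1.11, edgeR adjusted p = 3.42e-06), which is not read as evidence in NK cells. The same setting moved CD8 T-cell Ccl5 from an edgeR adjusted p of 0.0246 to 4.23e-11, at log2 changes of 1.30 and 1.42. In NK cells control tumours had 420, 1185, 1205 and 4038 CPM and the 9 Mif KO tumours 932, 3349 and 8612 CPM, with a log2 change of 0.91 (SE 0.57, 2 SE on either side giving -0.23 to 2.05, edgeR adjusted p = 0.561). Dendritic cells, mostly mature ones, had a median of 2217 CPM in 4 control tumours (244 to 3034) and 1462 CPM in 8 Mif KO tumours (1299 to 2665). All 4 control tumours were of day 6, 3 of them of line 15, against 4 of the 8 Mif KO tumours. Day 16 control tumours, all under the cut of 20 cells, had 404 to 7812 CPM. The 4 control values in the fit lay on both sides of the Mif KO range, and the log2 change was -0.21 (SE 0.43, edgeR adjusted p = 0.899). With day as a term, only day 6 set the groups against each other in this fit. Neither of the 2 tested members, Ccl5 and Ccl4, was called there, where 1.22% of 2466 genes were, and both had an unadjusted p above 0.05.

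Macrophages showed higher Ccl5, Ccl4 and Ccl3 in Mif KO tumours, in a comparison that called 33.7% of 6336 genes, so that 3 calls among 3 tested members are read against that background. Ccl5 in control macrophages had 25.4, 123 and 518 CPM as lowest, median and highest (n = 18), and in Mif KO macrophages 64.5, 332 and 1056 CPM (n = 17). The ranges overlapped, and the log2 change was 1.40 (SE 0.35, edgeR adjusted p = 0.00234). By line the medians were 119, 127, 141 and 451 CPM in lines 15, 18, 19 and 24. The highest median was that of line 24, the line whose non-immune cells were also high. The highest single value, 1056 CPM, came from 39 macrophages of line 19, tumour B at day 16. The highest of line 24 was 1029 CPM. Without line 24 the log2 change was 0.77 (edgeR adjusted p = 0.256), and with library as a term it was 1.31 (0.209).

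As a fraction of the CD8 T-cell level, Ccl5 in macrophages stood above 4 other genes of lymphocytes. Relative to CD8 T cells of the same line, macrophage Ccl5 was at 4.20, 10.9, 8.04 and 16.2% in lines 15, 18, 19 and 24. The T-cell genes Cd2 and Lat and the cytotoxic genes Gzmb and Nkg7 were at no more than 1.18% in any line, and each was highest in line 24. In non-immune cells Ccl5 was at 2.84, 6.13, 1.23 and 11.9% of the CD8 level, and these 4 genes at no more than 1.20%.

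Pooled over the lines, Ccl3 and Ccl4 were highest in neutrophils and then in macrophages, were also present in NK and T cells, and were detected together. Neutrophils had 2026, 1746, 1371 and 77.1 CPM of Ccl3 and 3543, 2816, 3632 and 1272 CPM of Ccl4 in lines 15, 18, 19 and 24, from 64, 31, 18 and 9 cells. Macrophages had 253, 254, 261 and 289.6 CPM of Ccl3 and 735, 709, 967 and 978 CPM of Ccl4, and held 73.2% of all Ccl3 UMIs in gated cells. NK cells had 63.5, 91.5, 138 and 221 CPM of Ccl3 and 381, 359, 578 and 590 CPM of Ccl4, which for Ccl4 was 50.5 to 60.4% of the macrophage level of the line. Without the tumour with the most UMIs, NK Ccl4 was 67.4 and 84.1 CPM in lines 15 and 18 and NK Ccl3 was 69.0 CPM in line 24. NK Ccl3 of the control lines also rested on single tumours. Tumour B at day 6 held 13 of the 14 UMIs of line 15, and tumour C at day 16 held 11 of the 12 of line 18. Pooled over the lines, NK cells had 133 and 501 CPM, C1q-negative myeloid cells 95.6 and 316, and dendritic cells 23.2 and 158. With 1 more UMI per gate the NK levels were 55.5 and 326 CPM and those of C1q-negative myeloid cells 96.6 and 296, so the order of these 2 classes turned for Ccl3. Neutrophils of line 24 had 2 Ccl3 UMIs and thus allow little comparison. Without the tumour with the most UMIs, neutrophil Ccl3 was 977 and 2104 CPM in lines 18 and 19 and Ccl4 was 1409 and 334 CPM in lines 19 and 24, and with hashtags called by ratio the pooled neutrophil levels went from 1601 to 893 CPM for Ccl3 and from 3088 to 1611 CPM for Ccl4. After thinning, 40.6% of 32 neutrophils and 16.2% of macrophages had a Ccl3 UMI, and 46.9% and 30.7% a Ccl4 UMI. Among macrophages with Ccl3, 74.8% (73.0 to 76.6) also had Ccl4, against 30.6% (29.4 to 31.8) of those without. NK cells showed 75.0% and 17.2%, and conventional CD4 T cells 56.1% and 5.29%.

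T cells held larger fractions of the macrophage levels of Ccl3 and Ccl4 than of macrophage marker genes. Relative to macrophages of the same line, T cells held 10.97 to 28.2% of the Ccl3 level and 14% to 47.7% of the Ccl4 level. The low end for Ccl3 was line 15, where tumour B at day 6 held 12 of 25 Ccl3 UMIs. Tumour A of that line at day 16 held 58 of its 109 Ccl4 UMIs. Apoe, Lyz2 and Mrc1 were at 0.445 to 3.22%. In T cells Ccl4 had 0, 199.7 and 777 CPM in control and 4.75, 167 and 692 CPM in Mif KO tumours, with a log2 change of -0.02 (SE 0.46, 2 SE on either side giving -0.93 to 0.89). Ccl3 had 0, 17.2 and 119 CPM and 0, 55.5 and 438 CPM, with a log2 change of 0.69 (SE 0.51, edgeR adjusted p = 0.460).

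In macrophages Ccl4 had 394, 673 and 1565 CPM in control and 445, 1048 and 2545 CPM in Mif KO tumours (log2 change 0.57, SE 0.17, edgeR adjusted p = 0.00998). Ccl3 had 92.8, 225 and 368 CPM in control and 175, 267 and 619.7 CPM in Mif KO tumours (0.40, SE 0.15, edgeR adjusted p = 0.0381). Both ranges overlapped between groups. Neither gene was higher in Mif KO tumours at day 16. Ccl3 means at days 6, 10 and 16 were 174 ± 72.6, 238 ± 41.7 and 268 ± 59.9 CPM (SD) in control tumours. In Mif KO tumours they were 347 ± 168, 343 ± 118 and 233 ± 37.7 CPM, so the groups moved in opposite directions. Ccl4 means were 893, 645 and 668 CPM in control and 1547, 1108 and 656 CPM in Mif KO tumours. None of Ccl3, Ccl4 and Ccl5 was called with library as a term, in the mixed libraries alone, with 1 sum per line or without Mif KO line 24. Ccl3 also lost its call without control line 15 (log2 change 0.51, edgeR adjusted p = 0.0592) and without control line 18 (0.28, 0.187). The same held without the low-count filter (0.35, 0.0601) and with at least 50 cells (0.34, 0.0661). The single-line libraries alone left 1 call, Ccl4, and hashtags called by ratio left 1, Ccl5. The 3 WT tumours, which entered no fit, had 223, 467 and 522 CPM of Ccl5, 868, 1235 and 1938 CPM of Ccl4 and 269, 332 and 473 CPM of Ccl3 in macrophages, each above the control median.

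Ccl4 in macrophages fell between days 6 and 16. The 11 day 6 tumours had 394, 1199 and 2545 CPM as lowest, median and highest, the 12 day 10 tumours 405, 815 and 1753, and the 12 day 16 tumours 421, 648 and 1019 CPM. The ranges overlapped, and the log2 change was -0.75 (SE 0.20, edgeR adjusted p = 0.0125), where 12.9% of 6336 genes were called. In Mif KO tumours the mean went from 1547 ± 594 CPM (SD, n = 5) to 656 ± 157 (n = 6), and in control tumours from 893 ± 468 (n = 6) to 668 ± 202 (n = 6). The control lines differed. Tumours of line 15 had 1079 to 1565 CPM at day 6 and 539 to 713 at day 16. Those of line 18 had 394 to 677 CPM at day 6 and 421 to 1019 at day 16. Without line 18 the log2 change was -1.12 (edgeR adjusted p = 0.000212). Ccl3 (0.16, edgeR adjusted p = 0.641) and Ccl5 (-0.58, 0.387) did not pass. The Ccl4 call was lost without control line 15 (-0.625, edgeR adjusted p = 0.140), Mif KO line 19 (-0.70, 0.0594) or Mif KO line 24 (-0.56, 0.112). It was also lost in the single-line libraries alone (-0.58, 0.0862) and with hashtags called by ratio (-0.58, 0.0832).

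**Figure D5:**
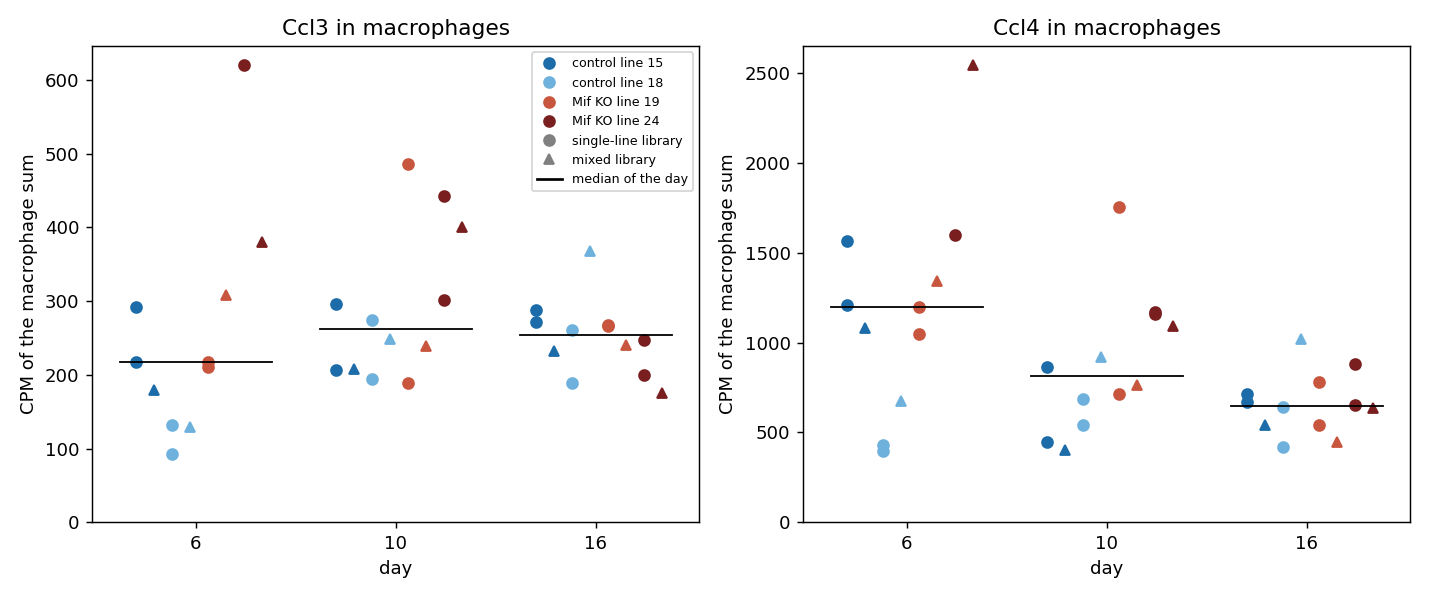
Ccl3 and Ccl4 in macrophages (CPM of the macrophage sum) by day; each point is a tumour with at least 20 macrophages, triangles are mixed libraries and bars are medians of the day. Over both groups, median Ccl4 went from 1199 CPM at day 6 to 648 CPM at day 16, while that of Ccl3 was 217 and 254 CPM. Between these days mean Ccl3 rose in control and fell in Mif KO tumours.

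Other genes of these pathways came from lists made with earlier results of these data known. In T cells of Mif KO tumours, where 7.16% of all genes were called, of 7 tested lymphocyte activation products 0 rose and 1 fell, the costimulatory receptor Tnfrsf4 (log2 change -0.63, edgeR adjusted p = 0.0424), and of 5 regulatory T-cell genes 1 fell, Il2ra (-0.72, 0.00753). The list medians were -0.42 and -0.34, against -0.02 over all genes tested. Both genes were high in regulatory T cells (Tnfrsf4 at 1343 and Il2ra at 389 CPM), and regulatory T cells were the smaller share of T cells in Mif KO tumours given above; the part of this shift in the falls was not tested. In Mif KO macrophages, where 33.7% of all genes were called, 1 of 6 other ligands fell, Ccl9 (-0.74, edgeR adjusted p = 0.00170), and 2 of 4 type 1 dendritic-cell genes rose, the transcription factors Batf3 (1.18, 2.98e-05) and Irf8 (0.54, 0.00317). From day 6 to day 16 in macrophages, where 12.9% of all genes were called, 1 of 4 tested activation products rose, Tnfrsf9 (1.22), and 2 fell, Il10 (-1.73) and Tnf (-0.56). Of 4 type 1 dendritic-cell genes 1 rose, Cadm1 (0.46), and 1 fell, Batf3 (-0.77), of 2 partner receptors 1 rose, Ccr1 (0.51), and of 6 other ligands none passed. These 6 calls had an edgeR adjusted p between 0.00341 and 0.0455. No gene of these lists was called in the CD8, dendritic or NK fits, where 2.25%, 1.22% and 0% of all genes were called.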

How the data were processed

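Gene counts and hashtag counts of 6 droplet libraries were analysed as deposited. Per the submitters' processing notes, the authors used Cell Ranger 6.0.0 and the mm10 build; the deposited values are raw UMI counts per gene and barcode. The hashtag sheet, a deposited table, gave each hashtag's line, day and letter. 2 of 47 hashtags held under 0.1% of their library's hashtag counts and were left out. Cells had to show 300 genes or more and no more than 15% mitochondrial UMIs, and hashtags were called with HTODemux (Seurat 5.3.0), which removed cells with more than 1 hashtag; no other doublet caller was run. Gates used raw UMIs: T cells, at least 3 of Cd3d, Cd3e, Cd3g, Trac, Trbc1 and Trbc2; NK cells, at least 2 of Ncr1, Klrb1c, Klre1 and Klra8 and no T-cell UMI; macrophages, at least 5 of C1qa, C1qb and C1qc; dendritic cells, at least 10 of Cd74 and H2-Ab1 with Flt3, Clec9a or Ccr7. 26.1% of singlets fell in no gate.

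UMIs were summed per tumour and class (at least 20 cells, 10 for NK cells, a choice made after seeing the data) and tested in edgeR 4.0.16 (quasi-likelihood, TMM, filterByExpr, Benjamini-Hochberg over all genes tested, threshold 0.05), with day as a term between groups and line as a term between days. CPM values are counts per 1000000 UMIs of a class sum. Shares of cells were set at 1000 UMIs per cell. The dendritic-cell share used a permutation test. Depth per tumour ranged from 1975214 to 27576694 UMIs and limits rare classes most. Alternatives were RLE, DESeq2 1.42.0, no filter, other cell minimums and filters, hashtags called by ratio, leaving out each line, library as a term and 1 sum per line. Line levels without the tumour that held most of a gene's UMIs were added after seeing the data. The members, the gene lists and the rule for named genes (the 7 members, the listed pathway genes and the 3 genes most like each member) were chosen with earlier results of these data known. The script was tested on simulated data. Day 0 and WT samples entered no fit. Conventional CD4 (1 control tumour), regulatory and type 1 dendritic cells had too few cells for a fit. A gene of the pathway lists is not reported here.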

Additional observations from a re-analysis of the deposited data

Results flagged for a closer look

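In 80 groups of 4 to 6 tumours of 1 class, group and day, 13 values stood far from the others by Dixon's test at the 95% level. For normally distributed values chance gives about 1 in 20 groups. CPM from few UMIs need not be so distributed, so the number to expect here is not known. All 13 were high values. Values are CPM of the class sum, and no cause was tested.

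Several of these values belong to the same tumour. T cells of control line 15, tumour A at day 16, had the highest Ccl1 (175.5), Ccl5 (1512) and Ccr8 (207) of 5 control tumours, with the next at 45.1, 772 and 113. Tumour B of line 15 at day 6 had Ccl3 of 94.8 and Ccl4 of 205 in T cells, with the next at 17.2 and 30.7. Tumour A of line 18 at day 10 had Ccl3 of 109.6 and Ccl4 of 211, with the next at 11.9 and 32.9. Ccl3 and Ccl4 thus stood out together in both.

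Other single values were T-cell Ccr8 of 167 in line 15, tumour B at day 10 (next 42.2), and T-cell Xcl1 of 594.5 in line 19, tumour B at day 16 (next 322). Line 24 at day 10 gave CD8 Ccl1 of 166.1 in tumour A (next 25.5), and NK Ccl3 of 1069 and macrophage Xcl1 of 8.47 in tumour B (next 179 and 2.18). Dendritic-cell Ccl5 was 2665 in line 19, tumour B at day 6 (next 1433).

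In T cells, CD8 T cells and macrophages, in tumours with at least 20 such cells, the WT tumours, which no comparison used, exceeded every control tumour in 4 values of more than 3 UMIs; other classes are not counted here. WT at day 10 had T-cell Ccl3 of 172.4 (highest control 119.1). WT at day 6 had macrophage Ccl3 of 473 and Ccl4 of 1938 (highest controls 368 and 1565), and WT at day 16 had macrophage Ccl5 of 522 (518).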

How the results depend on the processing

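Counts of members called by edgeR depended on line and library. Leaving out each line gave 0 to 1 calls in T cells, 0 to 1 in CD8 T cells and 0 to 3 in macrophages for Mif KO, and 0 to 1 in T cells and 0 to 1 in macrophages for the day. With library as a term, or in the mixed libraries alone, the Mif KO counts were 0 in all 3 classes, and single-line libraries alone gave 0, 0 and 1. With 1 sum per line T cells and macrophages gave 0. Hashtags called by ratio gave 1 in macrophages for Mif KO and 0 for both day comparisons, at least 50 cells gave 0 in T cells for Mif KO and the day, and in CD8 T cells stricter filters and at least 10 cells gave 0. Without the low-count filter 2 members were called in T cells (Ccl1 at 1.30, and Ccl5) and 2 in CD8 T cells (Xcl1, Ccl5). In macrophages by day 2 were called (Ccl5, Ccl4), in the interaction 3 (Ccl1 at -4.63, Ccl5, Ccl4) and in each NK comparison 1 (Ccl5). In macrophages by group Xcr1 (2.53) was called and Ccl3 was not. The rise of Ccl1 in Mif KO T cells was known when the genes were chosen, so its call is no test of that rise. Ccl1 had 1 UMI in control T cells at day 6, and Xcr1 had 17 UMIs in macrophages of the 4 lines. Over all genes, calls for Mif KO in T cells went from 238 to 1 with library as a term, 2 in the mixed libraries, 14 with 1 sum per line, 41 without line 24 and 536 without the filter; in macrophages from 2135 to 252, 203, 2, 611 and 2855. RLE and DESeq2 kept the member counts of these comparisons.

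Members not called in the main setting changed sign as follows. T-cell Ccr8 by group was 0.64 in the mixed libraries, 0.73 with library as a term and -0.824 to 0.21 without single lines. T-cell Ccl3 was -0.0623 with at least 50 cells. T-cell Ccl4 was 0.40 in DESeq2, 0.13 without the filter, 0.56 and 0.30 with the library settings, 0.0905 by ratio, 0.14 with at least 10 cells, and -0.78 to 0.77 without single lines. CD8 Ccl4 was 1.22 and 0.70 with the library settings. Dendritic Ccl5 was 0.0182 without the filter and 0.18 with 1 sum per line. T-cell Ccl5 by day was -0.0282 in DESeq2, -0.26 by ratio and -0.15 with at least 10 cells, and T-cell Ccl4 by day -0.0065 with 1 more UMI per gate and -0.76 with at least 50 cells. NK Xcl1 by group was -0.0731, -0.36 and -0.42 in the single-line libraries, with 1 sum per line and by ratio, and NK Ccl4 0.0533 with library as a term. Without single lines the ranges were: by day in T cells, Xcl1 -0.405 to 0.0597, Ccl5 -0.448 to 0.177, Ccl3 -1.92 to 1.49 and Ccl4 -0.0921 to 2.06; by day in macrophages, Ccl5 -0.897 to 0.0937 and Ccl3 -0.163 to 0.446; in the interaction, Ccl3 -3.37 to 2.56; in NK cells by group, Xcl1 -0.933 to 0.297 and Ccl4 -0.906 to 0.763. The cause was not tested.

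The type 1 dendritic-cell difference was 0.590 to 0.827 points without single lines, 0.673 in the mixed libraries and 0.258 at day 10 alone (a split added after seeing the data). Shares of cells with a UMI at 500 UMIs were 5.78% for Ccl1, 55.5% for Ccl5, 31.6% for Xcl1 and 10.8% for Ccr8; by ratio Ccl5 was 61.0% and Xcl1 37.6%, and with 1 more UMI per gate Xcl1 was 55.2% and Xcr1 26.9%. Hashtags called by ratio also lowered the pooled levels of Ccl1 in T cells (73.8 to 44.6 CPM), of Ccl5 in NK and mature dendritic cells (2658 to 1628 and 2552 to 1604 CPM), and of Ccl3 and Ccl4 in NK cells (133 to 80.2 and 501 to 269 CPM) and T cells (72.5 to 46.9 and 179.8 to 117 CPM) by over 1.5 times; 1 more UMI per gate raised Xcr1 in type 1 dendritic cells from 163 to 258 CPM. No paired analysis was possible because the groups share no line number and the labels do not say that letters A to C mark a shared animal; letter C marks the mixed libraries, whose values with library and day as terms are given above. Some alternatives left too few tumours and were not run, among them CD8 T cells without control line 18 and NK cells in the mixed libraries alone. Depth limits Ccl1 and Xcr1, whose low counts kept them out of every fit with the filter.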

Other observations

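Genes with a pattern most like each member were read from 33 sums of a class and line, as Pearson correlations of log2(CPM + 1) over 11969 genes. These points share libraries and gates and are a description without a test. Ccl1 was most like Xlr4c (r = 0.88), the T-cell receptor segment Trav6-7-dv9 (0.87) and Il21 (0.86), the cytokine of helper T cells that act on B cells. Ccr8 was most like Trav6-7-dv9 (0.96), Izumo1r (0.95), a folate receptor of regulatory T cells, and Trbv26 (0.95). Xcl1 was most like the NK receptors Klre1 (0.96, itself a gate gene) and Klra7 (0.94) and the death ligand Fasl (0.94). Ccl5 was most like Serpinb9 (0.90), an inhibitor of granzyme B, H2-Q6 (0.89) and P2ry10 (0.88). Ccl3 was most like Ccl4 (0.91) and then Fcgr3 (0.75) and Ugp2 (0.72), Ccl4 like Ccl3, Tm6sf1 (0.85) and Abcg1 (0.83), and Xcr1 like Strip2, Adam11 and Spib (each 0.92).

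The ligand Ccl1 and its receptor Ccr8 followed each other over these sums (r = 0.80), while Xcl1 and its receptor Xcr1 did not (r = -0.41). Other pairs of members ranged from -0.30 (Ccr8 and Xcr1) to 0.91 (Ccl3 and Ccl4), with Xcl1 and Ccr8 at 0.54. The members were chosen by their levels in these classes, so these values only describe that pattern.

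The WT tumours had 941 CPM of Ccl1 in 35 conventional CD4 T cells, from 66 UMIs (exact Poisson 95% interval 728 to 1197), of which 62 came from 10 cells of the day 16 tumour.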
